A study of Mus musculus with 6 samples.

Results

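Hyaluronan is made, broken down and bound by a small set of proteins, and 9 of their genes were followed here: the synthases Has1, Has2 and Has3, the breakdown genes Hyal1, Hyal2 and Cemip, and the binding genes Cd44, Hmmr and Vcan. The rule names them by what their proteins do and uses no threshold on a measured value, but it was drawn up with earlier results of these data known. They are 9 of the 53801 genes in the count files, and all 9 were among the 17514 genes with enough reads to be tested. The RNA came from maxillary prominences, the buds that form the upper jaw and palate, of C57BL/6 mouse embryos (C57BL/6J in the growth notes) at E12.5. It was sequenced in 3 wild-type (WT) and 3 Wnt1cre; Rosa26Dlx2/- (Dlx2OE) samples. The Dlx2OE embryos carried 1 Rosa26 allele with a CAG promoter, a stop cassette and Flag-tagged Dlx2, in which Wnt1cre opens expression in the neural crest lineage. The study asked which genes Dlx2 overexpression alters in this tissue.

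Hyaluronan is a long, unsulfated sugar chain that synthases in the plasma membrane build from UDP-glucuronate and UDP-N-acetylglucosamine and push out of the cell. The chain holds water and swells the matrix between mesenchymal cells, and in the palatal shelves its accumulation is a classical part of shelf elevation. Its amount depends on synthesis, on cutting by hyaluronidases and related proteins at the cell surface and in lysosomes, and on the receptors and proteoglycans that anchor it.

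None of the 9 genes differed between genotypes at an adjusted p under 0.05 (quasi-likelihood test of edgeR, Benjamini-Hochberg adjustment over 17514 genes), where 6.45% of all genes tested did. Has2, which supplied most of the synthase RNA, differed by 1.04-fold, with a 95% interval from 0.822-fold to 1.31-fold. Has1, Has3 and Hmmr were higher and Hyal1 and Hyal2 lower in every Dlx2OE sample than in every WT sample, and the genotypes likewise did not overlap for 34.1% of all genes tested. Has1, Has3 and Cd44 varied far more among the Dlx2OE samples than among the WT samples. Dlx2OE sample 1 carried much of the difference in Has3, Cd44 and Cemip. The log2 fold change of Has1 was 1.22 with all samples and 0.79 without Dlx2OE sample 3.

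The gene models place the 3 synthases on separate chromosomes. In GRCm38, the build called mm10 in the study, Has1 (ENSMUSG00000003665) lies on the reverse strand of chromosome 17 from 17843323 to 17855205, Has2 (ENSMUSG00000022367) on the reverse strand of chromosome 15 from 56665627 to 56694539, and Has3 (ENSMUSG00000031910) on the forward strand of chromosome 8 from 106870242 to 106884566. They are paralogs, so the most alike stretch of their coding sequences is shown to make plain how far reads can tell them apart. The window has 60 bases and was read from GENCODE M21 transcripts, 5′ to 3′ on the coding strand. Capitals mark the 16 positions at which the 3 genes do not all have the same base, and the other 44 are the same in all 3. It starts at coding base 1135 of Has1, 1045 of Has2 and 1057 of Has3.
Has1: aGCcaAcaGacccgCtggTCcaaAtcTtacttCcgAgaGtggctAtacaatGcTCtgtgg
Has2: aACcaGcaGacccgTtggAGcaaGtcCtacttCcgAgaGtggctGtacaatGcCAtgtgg
Has3: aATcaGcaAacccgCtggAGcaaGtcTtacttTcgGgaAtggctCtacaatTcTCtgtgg
Even in this window the genes differ every few bases. Over the aligned coding sequence 68.9% of bases were the same in Has2 and Has3, 68.1% in Has1 and Has3, and 62.7% in Has1 and Has2. The longest exact run that any pair of synthase transcripts shared was 23 bases, against reads of 150 bases, so these values were not treated as shared between paralogs. The same held for Hyal1 and Hyal2, with 60.4% identity and a longest shared run of 14 bases.

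Overlaps with other genes can also take reads away. The union mode of htseq-count drops reads that fall on 2 genes, and the library kit does not keep strand. Hyal1 (ENSMUSG00000010051, chromosome 9, 107576927 to 107581710, forward strand) shares 51.9% of its exon bases with Naa80 and Hyal3, so its level is a lower limit. Has2 shares 4.30% of its exon bases with its antisense gene Has2os, and Has3 shares 5.52% with Chtf8. The other 6 genes share no exon base with another gene in the annotation.

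Dlx2, the targeted gene, was covered by 1255, 1056 and 1409 reads in WT samples 1 to 3, and by 3521, 4102 and 3336 reads in the Dlx2OE samples in the same order. The groups were far apart, with a log2 fold change of 1.60 (SE 0.12, edgeR adjusted p = 0.00241). Total reads on genes ranged from 26155500 to 31308813 per sample. Dlx2OE sample 1 stood apart from the other 5 on the second principal component, at -64.4 against 2.86 to 27.1, and in Dlx2OE sample 3 more reads than elsewhere fell outside genes, 14.7% against 5.03% to 7.81%. All 8 markers of facial mesenchyme were present, and their summed level was 2816 to 3404 CPM in WT and 3587 to 3773 CPM in Dlx2OE. CPM here is the count of a gene scaled to library size by the TMM method. Blood, vessel, nerve, muscle, cartilage and epithelial markers were present too, so the samples are mixed tissue. In the edgeR fit 4 of 8 macrophage, 3 of 8 erythroid, 2 of 10 epithelial and 1 of 7 endothelial markers fell at an adjusted p under 0.05, against 6.45% of all genes in either direction. Of 8 mesenchymal markers 1 (Twist1) rose, and no neuronal, cartilage, muscle or glial marker passed. Foxd3 of the glial list had no reads in any sample. In such bulk RNA, fewer cells of a type and less RNA per cell cannot be told apart.

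Among the synthases, Has2, the main embryonic hyaluronan synthase, was by far the most abundant in WT. Has2 was at 35.9, 44.9 and 44.4 CPM in WT samples 1 to 3 and at 48.4, 45.5 and 35.8 CPM in Dlx2OE samples 1 to 3. Both the highest and the lowest of the 6 values were in Dlx2OE samples. The WT range thus lay inside the Dlx2OE range, and no Dlx2OE value fell between the WT values. WT samples averaged 41.7 ± 5.03 CPM and Dlx2OE samples 43.2 ± 6.62 CPM (SD, n = 3 each). The difference was 0.05 on the log2 scale (SE 0.15, edgeR adjusted p = 0.830). The 95% interval of the fold, 0.822 to 1.31, covers a modest fall as well as a modest rise, so equal expression was not shown. The sign turned to -0.05 without WT sample 1 and to -0.05 without Dlx2OE sample 1. Has2os, the antisense transcript at the Has2 locus, had only 15 to 34 reads per sample, with an edgeR adjusted p of 0.361.

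**Figure D1:**
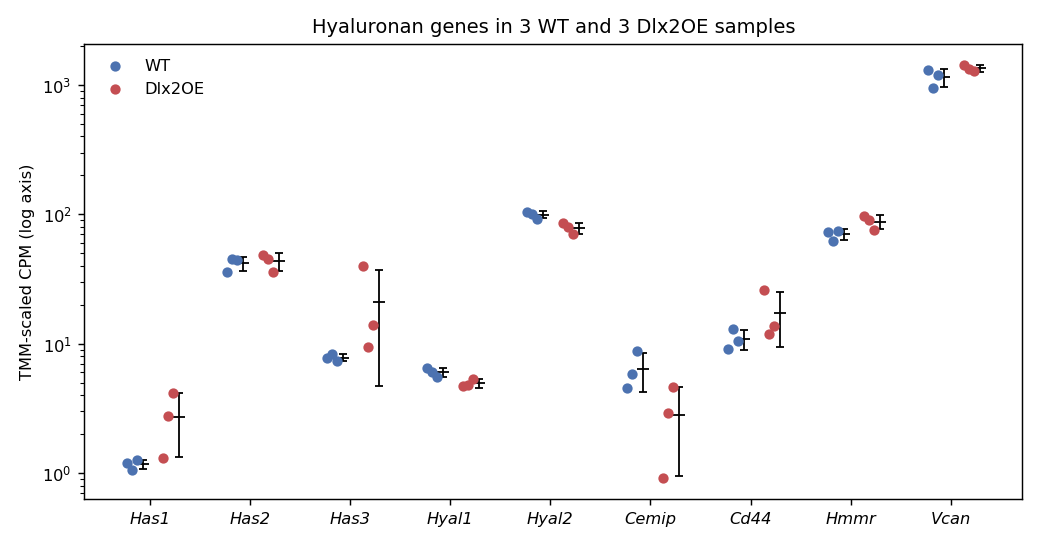
TMM-scaled CPM (log axis) of the 9 hyaluronan genes, with 1 point per sample (blue WT, red Dlx2OE; samples 1 to 3 from left to right) and black bars for the mean ± SD of 3 samples. Has1, Has3 and Cd44 are spread more widely in Dlx2OE than in WT, Cemip is lowest in Dlx2OE sample 1 at 0.911 CPM, and the 2 groups of Has2 overlap.

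Has3, a synthase of epithelia among other tissues, was the gene with the largest positive fold change of the 9. It was at 7.76, 8.26 and 7.31 CPM in WT and at 39.8, 9.46 and 14.0 CPM in Dlx2OE samples 1 to 3. Every Dlx2OE sample was above every WT sample, but sample 1 was far above the other two. Means were 7.78 ± 0.475 CPM for WT and 21.1 ± 16.3 CPM for Dlx2OE (SD, n = 3 each). On the log2 scale Dlx2OE was 1.44 higher (SE 0.48, 2.71-fold, 95% interval 1.26 to 5.81), with an unadjusted p of 0.0167 and an adjusted p of 0.0990 in edgeR. Without Dlx2OE sample 1 the log2 fold change was 0.58 (adjusted p = 0.109). With no filter on low counts, Has3 passed the threshold at an adjusted p of 0.0231 (edgeR), where 6.09% of the 33556 genes then tested did.

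Has1, a synthase usually made at low levels in embryos, was the lowest of the 9 genes per kilobase in WT. WT samples 1 to 3 held 35, 32 and 39 Has1 reads, and the Dlx2OE samples held 39, 86 and 112 in the same order. This is 1.20, 1.06 and 1.25 CPM against 1.32, 2.74 and 4.14 CPM, so Dlx2OE sample 1 lay just above the WT range and samples 2 and 3 well above it. Means were 1.17 ± 0.097 and 2.73 ± 1.41 CPM (SD, n = 3 each). All values were above the floor of 3 reads, which is 0.0955 to 0.111 CPM. The log2 fold change was 1.22 (SE 0.41, 2.33-fold, 95% interval 1.21 to 4.46), with an unadjusted p of 0.0174 and an adjusted p of 0.101 (edgeR). Without Dlx2OE sample 1 it was 1.54 (edgeR adjusted p = 0.0200), a fit in which 10.7% of 18194 genes passed, and without Dlx2OE sample 3 it was 0.79 (edgeR adjusted p = 0.285).

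The make-up of the synthase RNA can be compared once each level is divided by the gene's exon length. Per kilobase, Has2 supplied 86.9 ± 1.52% of the summed synthase level in WT (SD, n = 3), Has3 10.8 ± 1.29% and Has1 2.31 ± 0.36%. In Dlx2OE samples 1 to 3 the share of Has2 was 63.7%, 83.7% and 73.1%, each below the lowest WT share of 85.1%. Has3 made up 34.7% in Dlx2OE sample 1, and Has1 made up 7.92% in Dlx2OE sample 3. The summed synthase level was 9.96, 12.1 and 11.9 CPM per kilobase in WT and 17.9, 12.8 and 11.6 in Dlx2OE, so the groups overlapped and sample 1 was the highest. Shares were described and not tested, and with 3 samples against 3 an exact permutation test cannot go below p = 0.1.

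**Figure D2:**
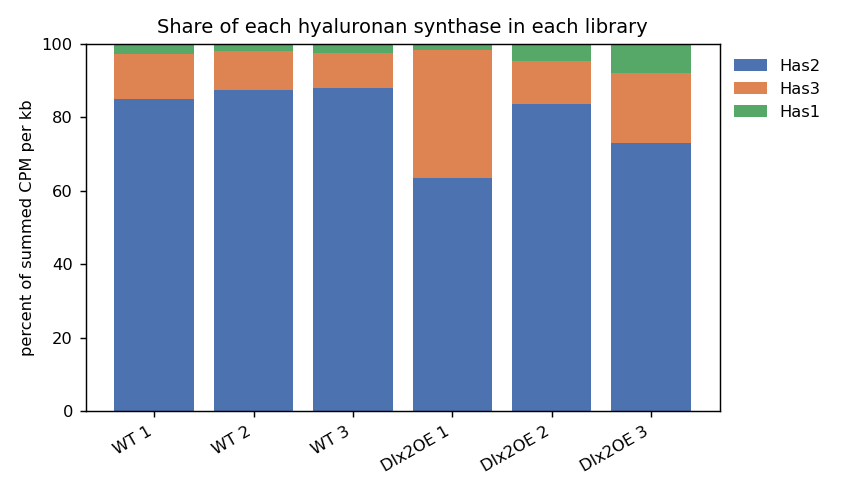
Percent of the summed synthase level (CPM per kilobase of exon) from Has2, Has3 and Has1 in each of the 6 samples, stacked to 100%. Has2 is at least 85.1% in each WT sample and 63.7% to 83.7% in the Dlx2OE samples.

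Of the breakdown genes, Hyal2, a hyaluronidase anchored at the cell surface, was lower in every Dlx2OE sample than in every WT sample. Hyal2 (ENSMUSG00000010047) lies on the forward strand of chromosome 9 from 107567945 to 107572779, just upstream of Hyal1. Its levels were 105.0, 100.4 and 92.7 CPM in WT and 85.9, 79.1 and 69.9 CPM in Dlx2OE samples 1 to 3. The WT mean was 99.3 ± 6.22 CPM and the Dlx2OE mean 78.3 ± 8.05 CPM (SD, n = 3 each). The difference was -0.34 on the log2 scale (SE 0.11, 0.788-fold), with an unadjusted p of 0.0127 and an adjusted p of 0.0872 (edgeR), the smallest adjusted p of the 9. It stayed between -0.42 and -0.27 when any 1 sample was left out.

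Hyal1, the lysosomal hyaluronidase, was much rarer. It was at 6.49, 6.04 and 5.52 CPM in WT and at 4.69, 4.78 and 5.35 CPM in Dlx2OE samples 1 to 3. The groups were adjacent without overlap, and the log2 fold change of -0.28 (SE 0.18, edgeR adjusted p = 0.331) was small against its error.

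Cemip, which is needed for cells to depolymerize hyaluronan and is also called KIAA1199, had the largest negative fold change of the 9. Cemip (ENSMUSG00000052353) spans 83932857 to 84086502 on the reverse strand of chromosome 7. It had 132, 176 and 272 reads in WT and 27, 91 and 125 reads in Dlx2OE samples 1 to 3. This is 4.51, 5.84 and 8.72 CPM against 0.911, 2.90 and 4.62 CPM, and the highest Dlx2OE value was just above the lowest WT value. The log2 fold change was -1.18 (SE 0.52), with a 95% interval from -2.39 to 0.02 and an edgeR adjusted p of 0.176. Without Dlx2OE sample 1 it was -0.77, and without Dlx2OE sample 3 it was -1.73. DESeq2 gave Cemip an adjusted p of 0.0548 and Has1 one of 0.0535, and it passed none of the 9 where it passed 12.7% of 19047 genes.

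The 3 breakdown genes together were dominated by Hyal2, with 93.4% of their summed level per kilobase in WT. Their sum was 33.96, 32.6 and 30.3 CPM per kilobase in WT and 27.4, 25.5 and 23.0 in Dlx2OE. This sum describes RNA and not enzyme activity.

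**Figure D3:**
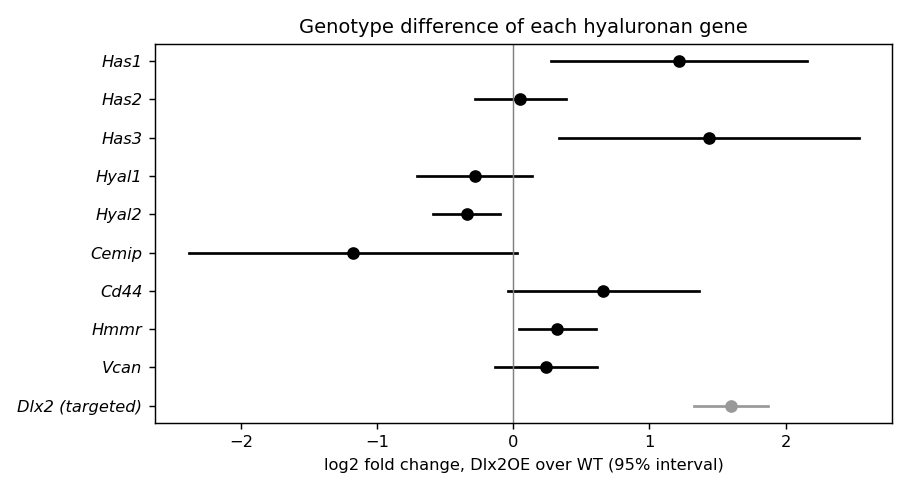
Log2 fold change of Dlx2OE over WT for each of the 9 genes and, in gray, for Dlx2, with 95% intervals from the edgeR fit. The intervals of Has1, Has3, Hyal2 and Hmmr leave out 0 before adjustment for the number of genes tested, and those of the other 5 hyaluronan genes include it.

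Among the binding genes, Cd44 encodes the main cell-surface hyaluronan receptor. Cd44 (ENSMUSG00000005087) lies on the reverse strand of chromosome 2 from 102811141 to 102901665. It was at 9.09, 12.9 and 10.5 CPM in WT and at 26.1, 11.9 and 13.6 CPM in Dlx2OE samples 1 to 3. Only Dlx2OE sample 1 was far outside the WT range, and sample 2 was inside it. Means were 10.9 ± 1.95 CPM for WT and 17.2 ± 7.74 CPM for Dlx2OE (SD, n = 3 each). Cd44 differed by 0.66 on the log2 scale (SE 0.30, edgeR adjusted p = 0.188), and without Dlx2OE sample 1 it was 0.22 (edgeR adjusted p = 0.472).

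Hmmr, also called RHAMM, binds hyaluronan and is best known as a mitotic spindle protein of dividing cells. Hmmr (ENSMUSG00000020330) lies on the reverse strand of chromosome 11 from 40701395 to 40733422. Its levels were 72.7, 62.7 and 74.9 CPM in WT and 97.3, 89.7 and 75.8 CPM in Dlx2OE samples 1 to 3. Dlx2OE sample 3 was less than 1 CPM above the highest WT sample. The difference was 0.32 on the log2 scale (SE 0.12, 1.25-fold), with an unadjusted p of 0.0303 and an adjusted p of 0.132 (edgeR).

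Vcan encodes versican, a large proteoglycan of the embryonic matrix that binds hyaluronan through its amino-terminal end. Vcan (ENSMUSG00000021614) lies on the reverse strand of chromosome 13 from 89655312 to 89742509. It was the most abundant of the 9 genes, with 1300, 939 and 1188 CPM in WT and 1436, 1332 and 1277 CPM in Dlx2OE samples 1 to 3. Mean levels were 1143 ± 185 CPM for WT and 1348 ± 80.5 CPM for Dlx2OE (SD, n = 3 each). The groups overlapped at WT sample 1 and Dlx2OE sample 3. The log2 fold change was 0.24 (SE 0.16, edgeR adjusted p = 0.351). It was 0.01 once gene length and GC content had been corrected for. Cd44 and Vcan are known for alternative splicing, and the annotation lists 9 transcripts for each, which counts per gene do not separate.

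Per kilobase of exon, the order of mean levels in WT was Vcan at 79.0, Hyal2 at 30.2, Hmmr at 12.9, Has2 at 9.85, Cd44 at 1.60, Hyal1 at 1.59, Has3 at 1.22, Cemip at 0.520 and Has1 at 0.259 CPM per kilobase. The ranges of Cd44 and Hyal1 overlapped, and no other neighbors in this order did. In Dlx2OE the first 4 genes stood in the same order, at 93.2, 23.8, 16.1 and 10.2 CPM per kilobase. Has3 at 3.31 came before Cd44 at 2.53 and Hyal1 at 1.31, and Has1 at 0.604 before Cemip at 0.230. The ranges of Has3 and Cd44 overlapped there, as did those of Has1 and Cemip. The level of Hyal1 is a lower limit, since 51.9% of its exon bases are shared with other genes. Its place in either order could thus be higher.

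As a group, 6 of the 9 genes were higher and 3 lower in Dlx2OE, with a median log2 fold change of 0.24 against 0.00 over all genes tested. None passed an adjusted p under 0.05 together with a log2 fold change beyond 1, where 3.12% of all genes did. At an unadjusted p under 0.05 there were 4 of 9, with Has1, Has3 and Hmmr higher and Hyal2 lower, where 29.5% of all genes passed. The genotypes did not overlap for 5 of 9, with Hyal1 added on the lower side, where 34.1% of all genes did not overlap.

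The high and low Dlx2OE samples were not the same for each gene, and markers of other cell types moved with some of them. Relative to the WT mean, Has3 was 2.35 and Cd44 1.27 higher on the log2 scale in Dlx2OE sample 1, against 0.28 and 0.14 in sample 2 and 0.85 and 0.34 in sample 3. The summed level of 10 markers of surface epithelium was 761, 1376 and 1026 CPM in WT and 1882, 595 and 610 CPM in Dlx2OE samples 1 to 3. This sum was also highest in Dlx2OE sample 1, where Krt5 and Krt14 were its largest parts, at 538 and 490 CPM. Krt15, Trp63 and Esrp1 were above the WT range there as well. Epcam and Cdh1 were inside it, and Krt8, Krt18 and Cldn6 were below it. Of the keratins of basal epithelium, Krt14 was 1.43 above the WT mean on the log2 scale in Dlx2OE sample 1 and 0.68 and 0.69 below it in the other two. Krt5 was 2.99, 0.83 and 1.12 above its WT mean in Dlx2OE samples 1 to 3. Krt8 and Krt18, keratins of simple epithelium, fell (edgeR adjusted p = 0.00939 and 0.0233), Krt8 being low in every Dlx2OE sample. None of the 10 markers was at 0 in all samples. Has3 was above the WT range also in Dlx2OE samples 2 and 3, where the epithelial sum was below it. Whether the epithelial share of the tissue plays a part in the levels of Has3 and Cd44 was not tested.

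Has1 stood in the same order over the Dlx2OE samples as several marker lists. On the log2 scale it was 0.16, 1.18 and 1.77 above the WT mean in Dlx2OE samples 1 to 3, and the summed level of 6 neuronal markers was 0.37, 1.61 and 2.61 above it. That sum was 60.5, 280.2 and 158.9 CPM in WT and 180.4, 426.0 and 847.1 CPM in Dlx2OE. In WT the sum varied more than 4-fold while Has1 stayed between 1.06 and 1.25 CPM. All 6 neuronal markers were higher in Dlx2OE in the mean, and none had an adjusted p under 0.05 (edgeR). At an unadjusted p under 0.05 there were 2 of 6, where 29.5% of all genes tested passed. The summed glial markers stood in the same order in Dlx2OE, at 27.7, 126 and 234 CPM, against 66.7 to 79.4 CPM in WT. The muscle markers, at 39.6, 81.5 and 114 CPM, the cartilage markers, at 256, 452 and 625 CPM, and the share of reads outside genes, at 5.75%, 7.81% and 14.7%, also stood in this order. The macrophage markers, at 63.05, 67.4 and 68.9 CPM, and the facial mesenchyme markers, at 3587, 3728 and 3773 CPM, stood in this order as well. The part of any of these in the Has1 level was not tested.

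Cemip was 2.66, 1.06 and 0.40 below the WT mean on the log2 scale in Dlx2OE samples 1 to 3. The summed cartilage markers were 1.31, 0.49 and 0.02 below theirs. The cartilage sum stood in the same order as Cemip, as did the neuronal, glial, muscle, macrophage and facial mesenchyme sums. Its largest part was Col2a1, at 179, 322 and 452 CPM in Dlx2OE samples 1 to 3. Col9a1 stood in this order too, and Sox9, Acan and Matn1 did not. In WT samples 1 to 3 Cemip was -0.44, -0.07 and 0.50 from its mean and the cartilage sum 0.02, -0.31 and 0.29 from its own, so both were highest in sample 3 and samples 1 and 2 stood in the opposite order. The cartilage sum was 511 to 775 CPM in WT and 256 to 625 CPM in Dlx2OE, and 4 of its 5 markers had enough reads to be tested, all 4 lower and none at an adjusted p under 0.05 (edgeR). Acan, aggrecan, is a cartilage marker and also stands in the list of hyaluronan binders. The part of any of these tissues in the Cemip level was not tested.

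**Figure D4:**
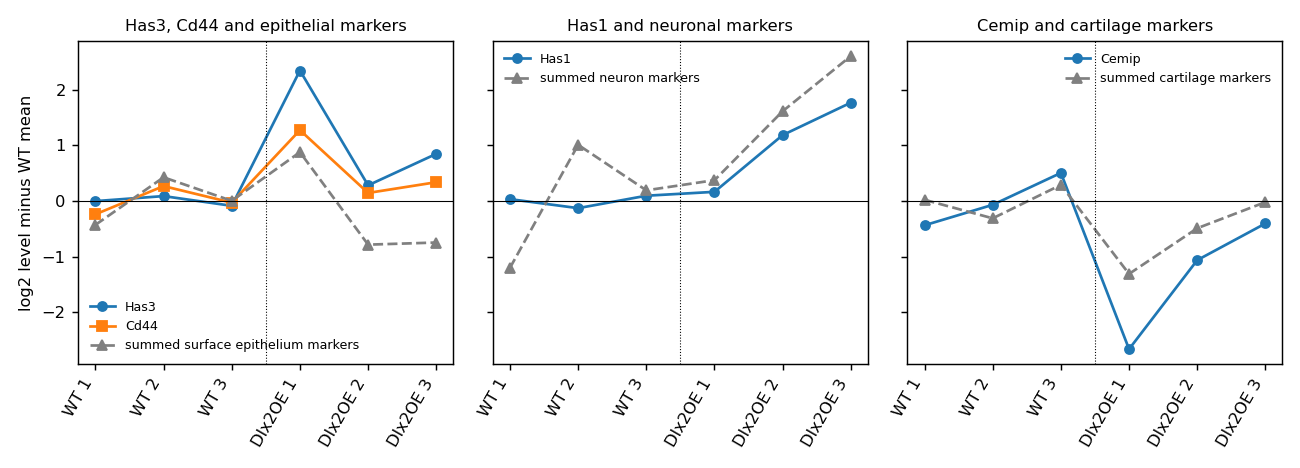
Log2 level in each sample minus the mean of the 3 WT samples, for Has3 and Cd44 with the summed markers of surface epithelium (left), Has1 with the summed neuronal markers (middle) and Cemip with the summed cartilage markers (right). Dlx2OE sample 1 is highest for Has3, Cd44 and the epithelial sum and lowest for Cemip and the cartilage sum, while Has1 and the neuronal sum are highest in Dlx2OE sample 3; pairs were put together after the values were seen.

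The rest of the hyaluronan pathway was described with 6 further lists, of which 64 of 80 listed genes had enough reads to be tested. Adamts20 and Ank3 rose at an adjusted p under 0.05 and no gene fell, with a median log2 fold change of 0.03 over the 64. This is 2 of 64, a smaller share than the 6.45% of all genes tested. Of the other breakdown genes 5 of 10 were tested, none passed, 4 were lower and 1 was higher, and the median was -0.42. Hexa, which encodes a lysosomal enzyme subunit, had the smallest p of the list, with a log2 fold change of -0.42 (edgeR adjusted p = 0.0754). Hyal4, Hyal5, Hyal6 and Spam1 had no reads in any sample. Tmem2 is an older symbol of Cemip2, a cell-surface hyaluronidase. Its WT mean was 124 ± 19.9 CPM and its Dlx2OE mean 145 ± 18.2 CPM (SD, n = 3 each).

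Of the other receptors and binders 15 of 25 were tested and none passed, with 6 higher, 9 lower and a median of -0.14. The smallest p belonged to Tnfaip6, whose product TSG-6 moves inter-alpha-inhibitor heavy chains onto hyaluronan, with a log2 fold change of 0.72 (edgeR adjusted p = 0.0504). It was followed by Itih5, a heavy chain of that family, at 0.60 (edgeR adjusted p = 0.127). Bcan, Hapln2, Hapln4, Itih1, Itih2, Itih3, Itih4, Ambp, Habp2 and Impg1 had too few reads to be tested.

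The enzymes that make the sugar precursors were tested for 14 of 15 genes, all but Nanp, and none passed. The median was -0.05, with 6 higher and 8 lower. Uap1l1, a relative of the enzyme that makes UDP-N-acetylglucosamine, was at -0.77 (edgeR adjusted p = 0.0729), and Hk2, a hexokinase, at 0.46 (edgeR adjusted p = 0.0802). Ugdh, which makes UDP-glucuronate and was singled out after its values were seen, was at -0.08 (edgeR adjusted p = 0.594).

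Of 6 ADAMTS proteases that can cleave versican, Adamts20 rose. It was at 18.1, 16.5 and 22.9 CPM in WT and at 33.01, 30.3 and 31.2 CPM in Dlx2OE samples 1 to 3, without overlap. Its log2 fold change was 0.72 (SE 0.14, edgeR adjusted p = 0.0327). The list had 5 members higher and 1 lower and a median of 0.31. Of 6 genes for proteins that link Cd44 to the cytoskeleton or the membrane, Ank3, the gene of ankyrin-G, rose from 72.1, 85.5 and 88.9 CPM in WT to 133, 115 and 182 CPM in Dlx2OE. Its log2 fold change was 0.81 (SE 0.17, edgeR adjusted p = 0.0389), and the list had a median of 0.03. Both calls were lost when gene length and GC content were corrected for, with log2 fold changes of 0.53 for Adamts20 and 0.27 for Ank3 (edgeR adjusted p = 0.0706 and 0.198). Both were also lost without WT sample 1, WT sample 2, Dlx2OE sample 2 or Dlx2OE sample 3, with adjusted p from 0.0831 to 0.133 for Adamts20 and from 0.0531 to 0.141 for Ank3 (edgeR). In these 4 fits the log2 fold change was 0.61 to 0.74 for Adamts20 and 0.60 to 0.94 for Ank3, and 79 to 315 of all genes passed.

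For Hmmr, 18 genes of the late cell cycle were set beside it. All 18 were tested and none passed, 15 were higher and 3 lower, and their median log2 fold change was 0.07, below the 0.32 of Hmmr. Aspm, a spindle pole protein, was at 0.52 (edgeR adjusted p = 0.0622) and Mki67, the proliferation marker Ki-67, at 0.40 (edgeR adjusted p = 0.115).

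**Figure D5:**
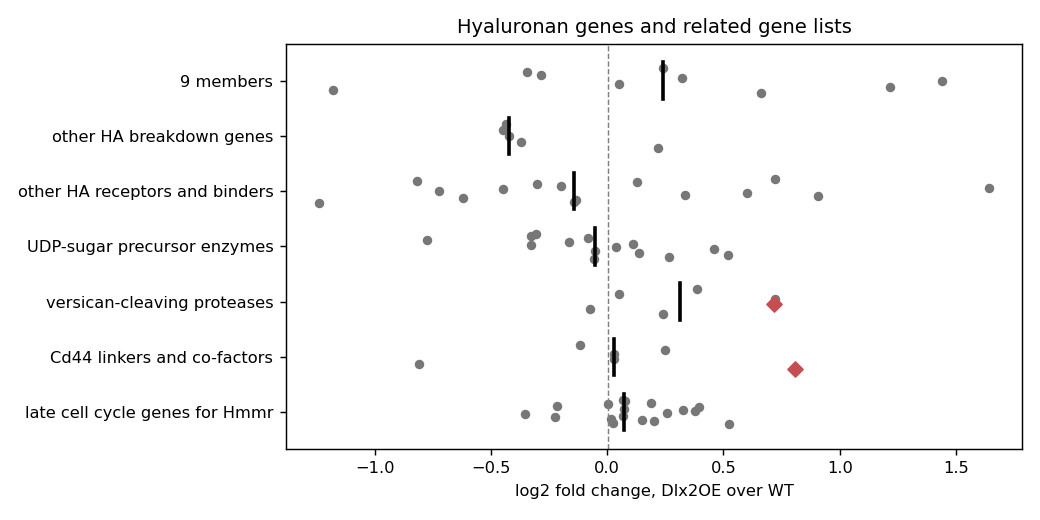
Log2 fold change of Dlx2OE over WT for each tested gene of the 9 members and of 6 related lists, with black bars for list medians and a dashed line at the median of all genes tested. The red diamonds are Adamts20 and Ank3, the 2 genes with an adjusted p under 0.05.

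The genes whose levels followed those of Has2 and Vcan most closely over the 6 samples were listed by Pearson's r of log2 CPM among 13224 genes. For Has2 they were Lacc1 with an r of 0.997, Hand2 with 0.976, Ccdc158 with 0.963, Rps4l with 0.961 and Ptchd1 with 0.958. For Vcan they were Mpzl3 with 0.995, Elmod2 and Arhgap5 with 0.983 each, and Parg and Mbd1 with 0.982 each. With 6 points and this many genes, high values of r are found for many genes, so the lists are a description only.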

How the data were processed

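RNA from maxillary prominences of 3 WT and 3 Dlx2OE samples at E12.5 was sequenced by the authors as poly-A libraries in paired reads of 150 bases. The study's methods name 6 littermates as the RNA source and the labels name 7, so whether a sample holds 1 embryo is unclear. P-values then measure the spread between these samples only. The authors mapped reads to mm10 with STAR 2.7.3a, counted them per gene with HTSeq 0.12.4 in union mode, and deposited raw counts without normalization. The strand setting and annotation release are not given in the sources used here. The 5 summary lines of each file were used only to describe the libraries. GENCODE M21 held 53706 of the 53801 gene identifiers, and the other 95 were tested without a symbol.

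The count test was the quasi-likelihood F test of edgeR 4.0.16, run in R 4.3.3 on genotype (filterByExpr with a minimum count of 10, TMM scaling, Benjamini-Hochberg adjustment over 17514 genes). Levels are TMM-scaled CPM, divided by the union of exons where stated per kilobase, and log2 levels used a prior count of 2. The floor of 3 counts covers counting error only, since amplified reads are not independent molecules. The 9 genes, the pathway and marker lists and the rule for named genes were chosen with earlier results of these data known. All 9 genes were named, with Dlx2. From each list came every gene with an adjusted p under 0.05 or else the 2 smallest p, and genes not tested. A gene that this rule selects is not reported here. The 5 genes closest to Has2 and to Vcan had a mean log2 CPM of at least 1. Alternatives were DESeq2 1.42.0, other scalings and filters, a replicate block, a loess correction for length and GC content (span 0.5), removal of mitochondrial and hemoglobin genes, and removal of each sample.

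In simulated data with 200 of 17514 genes changed, edgeR recovered 59% of 100 genes changed by 1 on the log2 scale and 77% of 100 changed by 2, with 9 false calls. With none changed it made 0 calls. DESeq2 recovered 71% and 88%, with 35 false calls and 28 calls with none changed. In the data 1130 genes passed in edgeR, more than the 200 changed in the simulation. The simulated counts were also drawn independently, with no sample set apart from its group. The recovery rates therefore need not hold for the data. Python 3.11.15 with matplotlib 3.10.9 drew the plots.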

Additional observations from a re-analysis of the deposited data

Results flagged for a closer look

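Reads that fell outside annotated genes took a larger share in each Dlx2OE sample than in the WT samples, where the share was 5.03% to 5.43%. The share was 5.75%, 7.81% and 14.7% in Dlx2OE samples 1 to 3. These reads enter no comparison of the hyaluronan genes, and their part in the levels given was not tested.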

How the results depend on the processing

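The direction of the fold change held in all 16 alternative fits for Has1, Has3, Hyal1, Hyal2, Cemip, Cd44, Hmmr and Vcan. For Has2 it held in 14 and turned to -0.0519 without WT sample 1 and to -0.0462 without Dlx2OE sample 1, in a range from -0.0519 to 0.170 over the fits that left out a sample. The number of the 9 genes with an adjusted p under 0.05 was 0 in edgeR and 0 in DESeq2, where 6.45% and 12.7% of all genes passed. At an unadjusted p under 0.05 it was 4 in edgeR, where 29.5% of all genes passed. It was 6 in DESeq2, where the share over all genes was not counted. With no filter on low counts 1 of the 9 (Has3) had an adjusted p under 0.05, where 6.09% of all genes did. When a sample was left out 0 to 1 did, the 1 being Has1 without Dlx2OE sample 1, where 10.7% of all genes did.

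Over all genes 1130 passed an adjusted p under 0.05, of which 262 were higher and 284 lower by more than 1 on the log2 scale. DESeq2 gave 2428, 447 and 440. A DESeq2 run whose filtering aimed at 0.05, made first and then replaced by the planned default, gave 2459, 452 and 442. No filter gave 2044, 506 and 497. The length and GC correction gave 748, and with the replicate block 591, 161 and 144. Leaving out samples gave 79 to 2091, 39 to 642 and 35 to 531, the lowest without WT sample 2. At an adjusted p under 0.05 at any fold, 524 genes were higher and 606 lower, and 201 and 390 with the length and GC correction and the block.

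The 2 pathway genes became 6 in both DESeq2 runs and with no filter, 4 with library size alone, 0 with the length and GC correction with or without the block, and 0 to 7 when a sample was left out. Of all genes 12.7% passed in the planned DESeq2 run and 6.09% with no filter, against 6.45% in the main fit. With library size alone 1063 genes passed, and without WT sample 3, the fit with 7 pathway genes, 2091 did. Tnfaip6 passed in 6 of 16 alternatives, with an adjusted p of 0.00566 to 0.183 over the 16. The Has2 share of the WT synthase level was 83.9% with the longest coding transcript as length. The cause of these shifts was not tested.

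The replicate numbers in the labels gave no sign of pairing. The correlations of deviations between WT and Dlx2OE samples of the same number were -0.07, -0.21 and 0.07. Deviations were taken from the mean of each genotype's 3 samples, which ties these correlations together. They therefore cannot show that the samples were unpaired. The fit with the replicate block passed 961 genes and 0 of the 9. Not every sample correlated best with its own number, the highest value being 0.34 between WT sample 1 and Dlx2OE sample 2.

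Reads were few for Has1 (32 to 112 per sample), for Cemip in Dlx2OE sample 1 (27) and for Has2os (15 to 34), and 15 listed pathway genes had too few to be tested.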
